A study of Mus musculus with 143 samples.

Results

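Collagens are the main structural proteins of the extracellular matrix, and the mouse genes named Col, a number, the letter a and a number encode their chains. Of the 54232 rows of the expression table, 44 carried such a symbol, and 36 of these reached 1 FPKM (fragments per kilobase of transcript, scaled to the mapped fragments of a library) in at least 5 libraries of the series. These 36 genes are described here in 3 groups, with 10 chains of fibrillar collagens, 7 of basement membranes and 19 others. The others comprised 5 type VI chains, 6 fibril-associated chains, 3 short-chain network chains, 3 transmembrane collagens, Col7a1 and Col28a1. Another 16628 genes of the table met the same minimum, and 14 of the 36 collagen genes met it in every library. Col22a1 lay just inside the minimum, with 1 FPKM or more in 5 libraries, and Col6a6 just outside it, with 4 libraries and a highest value of 1.48 FPKM. The other rows left out were Col2a1, Col4a6, Col9a1, Col9a2, Col19a1, Col25a1 and Col26a1, which reached 1 FPKM in at most 2 libraries.

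Each collagen chain winds with others of its type into a triple helix. Fibrillar collagens such as types I, III and V pack into the banded fibrils that give tissue its tensile strength, while type IV chains form the sheet-like network of basement membranes under epithelia and around vessels. In tumours, fibrillar collagen is known to come mainly from fibroblasts, and type IV collagen from endothelial cells, pericytes and epithelial cancer cells, although many cultured tumour lines make collagen chains of their own.

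The libraries were made from tumours grown under the skin of the right lower flank from 11 mouse cancer lines. In each line 5 tumours came from hosts given muDX400, a mouse antibody against the T cell receptor PD-1, 5 from hosts given a mouse IgG1 isotype antibody, and 3 were untreated baseline tumours. Both antibodies were given on days 11 and 15 after implantation and those tumours were taken on day 19, which is 8 days after the first dose, while the labels give no day for the baseline tumours. The labels class CM3, MBT2 and MC38 as High responders to anti-PD-1, CT26, EMT6, MB49 and RENCA as Partial responders, and 4T1, B16F10, LL2 and TC1 as Resistant. MC38 and CT26 are colon carcinoma lines, MBT2 and MB49 bladder carcinoma, 4T1 and EMT6 mammary carcinoma, RENCA renal carcinoma, LL2 Lewis lung carcinoma, TC1 a lung line carrying viral oncogenes, and B16F10 melanoma. The labels used here name neither the mouse strain nor the age. Each model rests on 1 transplanted line, and whole tumours were homogenised, so collagen transcripts of cancer cells, host stroma and adjoining skin were measured together. In such bulk samples fewer cells of a type and less RNA per cell cannot be told apart.

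Depth, estimated from the smallest steps between FPKM values, ran from 9.3 M to 50.5 M fragments with a median of 21.1 M. At the median depth 1 FPKM of a 5 kb transcript corresponds to 105.4 fragments. The 9 libraries above 30 M were the baselines of B16F10, RENCA and TC1. Sample numbers fall in 4 blocks, and the muDX400 and isotype libraries of a model lie in the same block. In all models but B16F10 and RENCA the baseline libraries carry numbers from another block than the 8-day libraries, so arm and block cannot be told apart there. Nothing in the labels says outright that replicates were separate animals, so p-values measure the spread between these samples. For 5 libraries, isotype replicate 4 of CM3, isotype replicate 2 of RENCA, isotype replicate 1 of 4T1, muDX400 replicate 2 of B16F10 and isotype replicate 2 of TC1, the summed FPKM of a collagen group stood apart from the rest of their group. The counts over all models are given with and without them. As these libraries were chosen by the collagen values themselves, counts without them are no independent check.

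Collagen transcripts differed widely in level between the tumour models. Among isotype libraries all 31 members tested differed between the 11 models, where 99.2% of all genes tested did, and the median share of a member's log2 variance that lay between models was 87.6%, against 82.6% over all genes. Without the isotype libraries that stand apart all 29 members tested differed, where 99.5% of all genes did, and the median shares were 90.4% over the members and 84.5% over all genes. The mean share of all library FPKM taken by the 36 members together ran from 0.0672% in muDX400 libraries of B16F10 to 0.763% in baseline libraries of TC1, where replicate 1 stood highest with 0.991%. By median the highest group was muDX400 of MC38 with 0.734%, against 0.659% in baseline libraries of TC1. Single libraries ran from 0.0300% (isotype replicate 3 of CM3) to 1.13% (muDX400 replicate 4 of RENCA). Fibrillar chains made up 75.5% of the summed collagen FPKM of EMT6 isotype libraries but 30.9% in MB49 isotype libraries, where basement membrane chains held 38.6%.

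**Figure D1:**
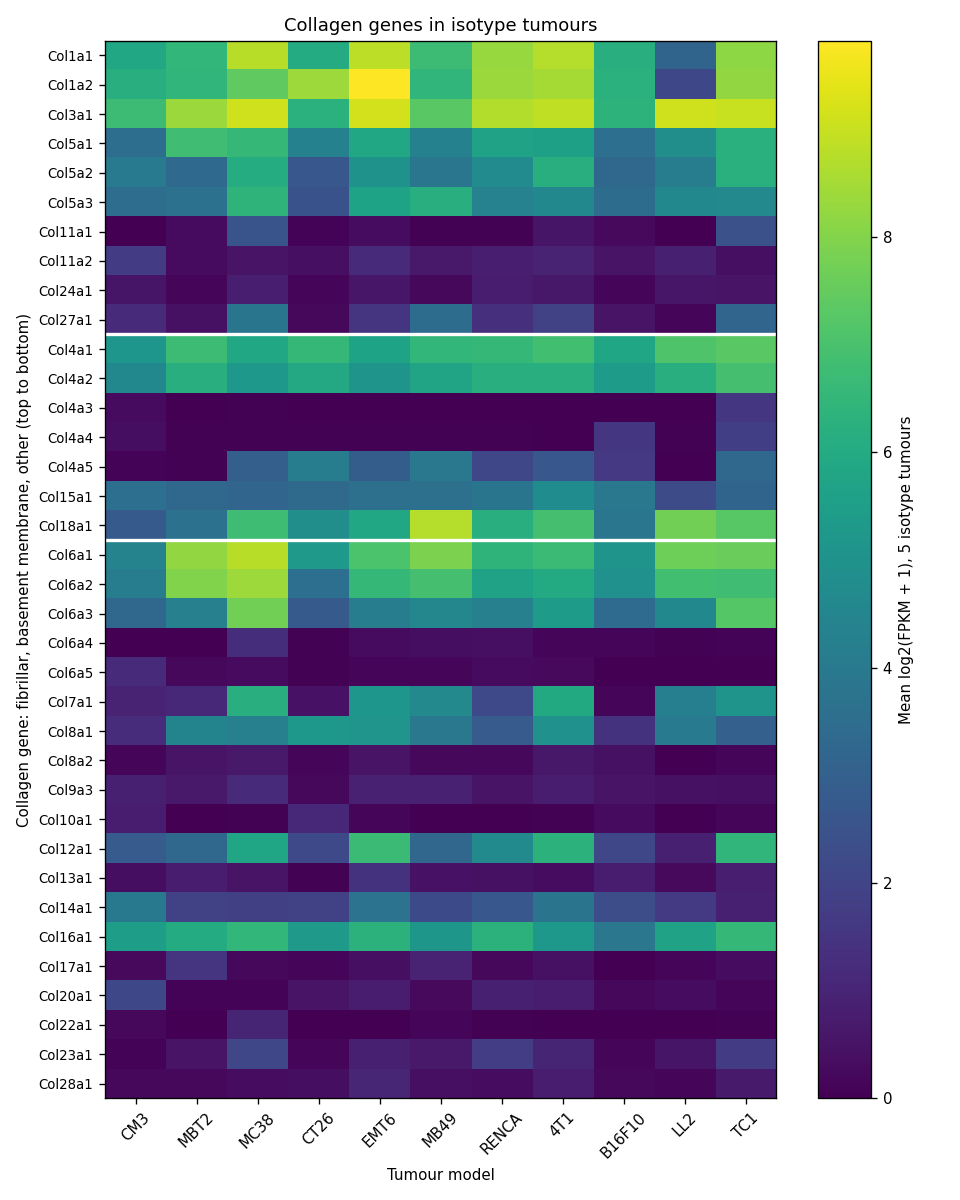
Mean level of the 36 collagen genes (rows, by group) in the isotype libraries of the 11 models (columns, n = 5 each), as log2(FPKM + 1). Col1a1 and Col1a2 are low in LL2 while Col3a1 is not, Col4a3 and Col4a4 are both above 1 FPKM in TC1, and Col18a1 is highest in MB49.

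Type I collagen, the commonest fibril former, is built from the chains of Col1a1 and Col1a2, and type III collagen, from Col3a1 alone, is laid down with it in skin and vessel walls. Isotype tumours of EMT6 had the highest levels, with 461 ± 55.6 FPKM of Col1a1 and 908 ± 58.0 FPKM of Col1a2 (mean ± SD, n = 5). LL2 isotype tumours had the lowest, with 10.8 ± 11.3 FPKM of Col1a1 and 5.33 ± 7.22 FPKM of Col1a2 (SD, n = 5). Type III did not share that order. LL2 isotype tumours held 550.2 ± 32.3 FPKM of Col3a1 (SD, n = 5), close to the 582 ± 133 FPKM of EMT6, and the lowest isotype mean, 76.9 ± 12.3 FPKM, was in CT26.

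Because LL2 separated the type I chains from Col3a1, the sequence before the RefSeq start of both kinds of gene is shown (mouse build GRCm38.p6, plus strand, 5′ to 3′, from RefSeq promoters). The Col1a2 stretch, chr6:4505370-4505492, lies 248 to 126 bases before the start and outside annotated exons, and the capitals mark GC boxes (GGGCGG). The Col3a1 stretch, chr1:45311288-45311537, is the whole 250-base window before its start, and the capitals mark a TATA box (TATAAA).
Col1a2: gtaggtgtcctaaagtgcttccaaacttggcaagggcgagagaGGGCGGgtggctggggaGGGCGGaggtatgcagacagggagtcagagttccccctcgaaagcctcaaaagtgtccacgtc
Col3a1: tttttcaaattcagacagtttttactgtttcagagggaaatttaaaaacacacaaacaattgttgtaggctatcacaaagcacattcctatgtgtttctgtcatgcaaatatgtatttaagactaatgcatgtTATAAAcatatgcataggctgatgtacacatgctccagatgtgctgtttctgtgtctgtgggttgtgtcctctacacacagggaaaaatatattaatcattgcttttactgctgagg
The GC boxes of Col1a2 begin 205 and 188 bases before the start, and its whole 250-base window also holds 1 CCAAT box 109 bases before the start. The TATA box of Col3a1 begins 117 bases before the start, and neither GGGCGG nor CCAAT was found in its window. Searched on both strands, with no match dropped for overlapping another, GGGCGG was in 32.7% of 32851 windows of this length, CCAAT in 33.8% and TATAAA in 12.4%. Of the 31 windows of 29 collagen genes, 18 held GGGCGG, 11 held CCAAT and 5 held TATAAA. A match describes letters only, and its absence says nothing about a factor. The part of these sequences in the LL2 values was not tested.

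Type V and type XI chains, which start fibrils and limit their width, and the minor fibrillar chains Col24a1 and Col27a1 differed in the model where they were highest. Col5a1 was highest in MBT2 isotype tumours, at 112 ± 19.7 FPKM, and Col5a3 in MC38 isotype tumours, at 82.7 ± 13.1 FPKM (SD, n = 5 each). Col11a1, best known from cartilage, averaged 5.16 ± 2.06 FPKM in MC38 and 4.51 ± 1.29 FPKM in TC1 isotype tumours, and under 0.5 FPKM in the isotype tumours of the other 9 models. Col27a1 averaged 13.7 ± 3.55 FPKM in MC38, 10.2 ± 0.983 FPKM in MB49 and 8.29 ± 2.0 FPKM in TC1 isotype tumours. In MC38 isotype tumours Col27a1 thus stood beside the highest isotype means of Col5a3, Col11a1, Col6a1 and Col6a3.

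Col4a1 and Col4a2, the pair present in nearly all basement membranes, were more even between models and ranged in isotype means from 36.9 ± 13.1 FPKM of Col4a1 in CM3 to 158 ± 13.2 FPKM in TC1 (SD, n = 5 each). Col4a3 and Col4a4, chains of the mature glomerular basement membrane, were read mostly in TC1. There the 5 isotype libraries had 1.69, 1.74, 1.76, 1.92 and 2.64 FPKM of Col4a3 and 2.26, 2.30, 2.40, 2.57 and 3.52 FPKM of Col4a4. B16F10 isotype libraries had 1.32, 1.68, 2.05, 2.07 and 2.61 FPKM of Col4a4, while Col4a3 stayed at or under 0.0869 FPKM in every 8-day and baseline library of B16F10. Col4a5, the X-linked partner of these chains, averaged 16.7 ± 1.67 FPKM in CT26 and 15.2 ± 6.31 FPKM in MB49 isotype tumours and under 0.1 FPKM in CM3, MBT2 and LL2, and its own neighbour Col4a6 reached 1 FPKM in only 2 libraries of the series. Col18a1, the precursor of endostatin, averaged 432 ± 46.4 FPKM in MB49 and 7.49 ± 5.80 FPKM in CM3 isotype tumours, the highest and lowest isotype means.

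The type IV genes stand head to head in pairs, on chromosome 8 (Col4a1 and Col4a2), chromosome 1 (Col4a3 and Col4a4, 71 bases apart) and chromosome X (Col4a5 and Col4a6, 1308 bases apart). Col4a1 starts on the minus strand and Col4a2 on the plus strand, so that their first 22 transcribed bases overlap. That shared start, chr8:11312801-11312830 of GRCm38.p6 on the plus strand, is shown because the pair kept the steadiest ratio described here, and the capitals mark the 22 shared bases.
Col4a1 and Col4a2: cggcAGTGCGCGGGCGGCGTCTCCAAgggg
Over all libraries of the series the Col4a1/Col4a2 ratio of FPKM lay between 1.05 and 2.14. The part of the shared start in that ratio was not tested.

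Among the remaining collagens, type VI chains, which form beaded filaments around cells, were highest in MC38, with 449 ± 95.7 FPKM of Col6a1 and 215 ± 36.9 FPKM of Col6a3 in isotype tumours (SD, n = 5). MBT2 isotype tumours held 315 ± 99.8 FPKM of Col6a1 but only 19.2 ± 6.11 FPKM of Col6a3. The fibril-associated Col12a1, which links fibrils in tissue under load, ranged from 0.921 ± 0.729 FPKM in LL2 to 104 ± 9.97 FPKM in EMT6 isotype tumours. Col7a1, which forms the anchoring fibrils beneath the epidermis, ranged from 0.135 ± 0.103 FPKM in B16F10 to 72.2 ± 18.9 FPKM in MC38. Col16a1 was more even, from 14.0 ± 3.21 FPKM in B16F10 to 93.1 ± 5.21 FPKM in TC1. By the median of a model's isotype libraries, 10 members had a highest model at least 10 times the median over models, namely Col6a3, Col6a4, Col11a1, Col22a1 and Col27a1 in MC38, Col4a3 and Col4a4 in TC1, Col12a1 in EMT6, Col20a1 in CM3 and Col10a1 in CT26. Several of these are low, with isotype means of 3.90 ± 2.53 FPKM for Col20a1 in CM3, 1.25 ± 0.696 FPKM for Col10a1 in CT26 and 1.02 ± 0.338 FPKM for Col22a1 in MC38. The median over models of the isotype means was 0.0255 FPKM for Col22a1, 0.0872 for Col6a4, 0.0507 for Col10a1 and 0.0178 for Col4a3. In the same order they reached 1 FPKM in 5, 8, 8 and 12 libraries of the series. For such genes the large ratio rests on a median near 0 and follows in part from the minimum for inclusion.

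Ratios between chains of one type had different means in different models. The Col1a1/Col1a2 ratio had a geometric mean of 0.195 in CT26 and 0.505 in EMT6 isotype tumours, against 2.57 in MC38 and 2.50 in LL2. In the other 7 models it was between 0.796 and 1.22. It stayed below 1 in every arm of CT26 and EMT6, with means of 0.299 in muDX400 and 0.225 in baseline tumours of CT26 and 0.559 in muDX400 and 0.441 in baseline tumours of EMT6. In LL2 it was 1.66 in muDX400 and 1.38 in baseline tumours, and the isotype libraries (1.70 to 3.73) all lay above the baseline libraries (1.37 to 1.41). In MC38 it was 1.52 in muDX400 and 3.80 in baseline tumours. Col3a1 exceeded Col1a1 by 23.0 times in muDX400, 69.5 times in isotype and 11.0 times in baseline tumours of LL2, while in the other 10 models the mean ratio of any arm was between 0.957 and 3.62. The Col5a1/Col5a2 ratio was 6.96 in muDX400, 12 in isotype and 9.13 in baseline tumours of MBT2. The Col4a4/Col4a3 ratio was 17.5, 17.3 and 18.7 in muDX400, isotype and baseline tumours of B16F10, with 0.1 FPKM added to both chains, which sets a ratio where 1 chain is near 0. Each of 8 chain ratios was compared between arms in each model by a 2-sided exact permutation test, which makes 88 tests per comparison. None passed after Benjamini-Hochberg adjustment. The lowest adjusted p was 0.0998 for muDX400 against isotype, reached by 7 ratios whose arms did not overlap. Their exact p of 0.00794 is the lowest that 5 against 5 libraries can give. For isotype against baseline the lowest adjusted p was 0.165, where 5 against 3 libraries cannot go below an exact p of 0.0357. Even arms without overlap thus did not pass, so these tests cannot show that the ratios were alike between arms. Of those 7 ratios 4 were in CT26, where the Col1a1/Col1a2 ratio was 0.241 to 0.389 in the muDX400 and 0.161 to 0.234 in the isotype libraries.

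**Figure D2:**
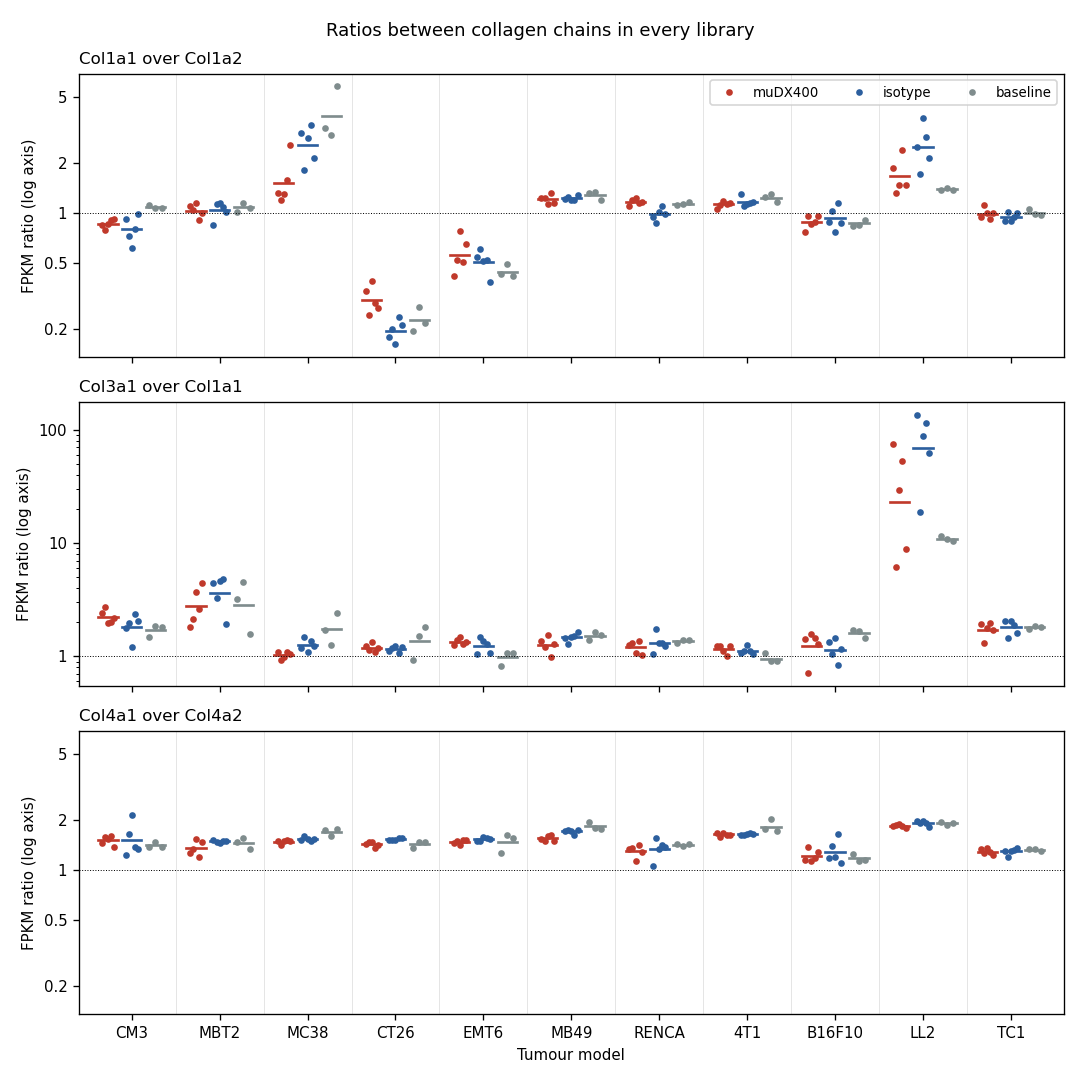
Ratio of FPKM (log axis) of Col1a1 to Col1a2, Col3a1 to Col1a1 and Col4a1 to Col4a2 in every library of the 11 models, with muDX400 left of isotype and isotype left of baseline and a bar at the geometric mean. LL2 isotype libraries reach a Col3a1/Col1a1 ratio of 134.9, CT26 and EMT6 lie below 1 for Col1a1/Col1a2, and Col4a1/Col4a2 stays between 1.05 and 2.14.

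The comparison of muDX400 with isotype asks what anti-PD-1 treatment changes, and over the mean of the 11 models both type I chains, Col3a1, Col5a2, Col12a1, Col14a1 and Col15a1 were among the 12 collagen genes that rose. Of 35 members tested 14 passed the limma test (adjusted p under 0.05), 12 higher and 2 lower, which is 40%, where 23.1% of all 16187 genes tested passed, 14.5% higher and 8.57% lower. The median log2 difference was 0.10 over the members and -0.01 over all genes. The fibrillar group had 4 of 10 members higher and none lower, the basement membrane group 1 higher and 1 lower of 7, and the others 7 higher and 1 lower of 18. Of 6 fibril-associated members 2 rose, Col12a1 and Col14a1, and 1 fell, Col16a1, while all 3 transmembrane members rose by little. Without the 5 libraries that stand apart 16 members passed, the same 14 and the type VI chains Col6a3 and Col6a5, and the differences of the 14 moved by -0.03 to 0.05. There 29.4% of all genes passed.

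Both type I chains rose, Col1a2 by 0.60 ± 0.14 (SE, adjusted p = 0.000646) and Col1a1 by 0.58 ± 0.13 (SE, adjusted p = 0.000388) in log2 FPKM over 55 muDX400 and 55 isotype libraries. Col14a1, which coats mature fibrils, rose by 0.58 ± 0.11 (SE, adjusted p = 3.38e-05), Col12a1 by 0.46 ± 0.10 (SE, adjusted p = 0.000146) and Col5a2, a type V chain, by 0.46 ± 0.11 (SE, adjusted p = 0.000803). Col3a1 rose by 0.41 ± 0.13 (SE, adjusted p = 0.0107), a call lost without CM3, without RENCA, or without replicate 1 or 3 of every arm. These are the main components of banded fibrils and their surface, and Col5a1 (0.13 ± 0.08 SE, adjusted p = 0.248) did not pass. Among basement membrane chains Col15a1, found beneath capillary endothelium and muscle, rose by 0.40 ± 0.09 (SE, adjusted p = 0.000205) and Col4a5 fell, with a difference of -0.26 ± 0.05 (SE, adjusted p = 0.000188). The vascular type IV pair did not pass, with 0.10 ± 0.06 (SE, adjusted p = 0.249) for Col4a1 and 0.15 ± 0.07 (SE, adjusted p = 0.0789) for Col4a2. Type VI chains did not pass either, with 0.21 ± 0.08 (SE, adjusted p = 0.0549) for Col6a3. Smaller rises passed in low genes, 0.30 for the short-chain Col8a2 (adjusted p = 1.17e-05) and 0.22 or less for Col23a1, Col28a1, Col13a1 and Col17a1. Col8a2 reached 1 FPKM in only 7 libraries of the series and had its highest muDX400 mean, 4.89 FPKM, in MC38. It met the minimum largely through that group, so its call is no separate support for a rise over the models. Col16a1 fell, with -0.18 ± 0.05 (SE, adjusted p = 0.00431), which did not pass without replicate 3 of every arm.

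**Figure D3:**
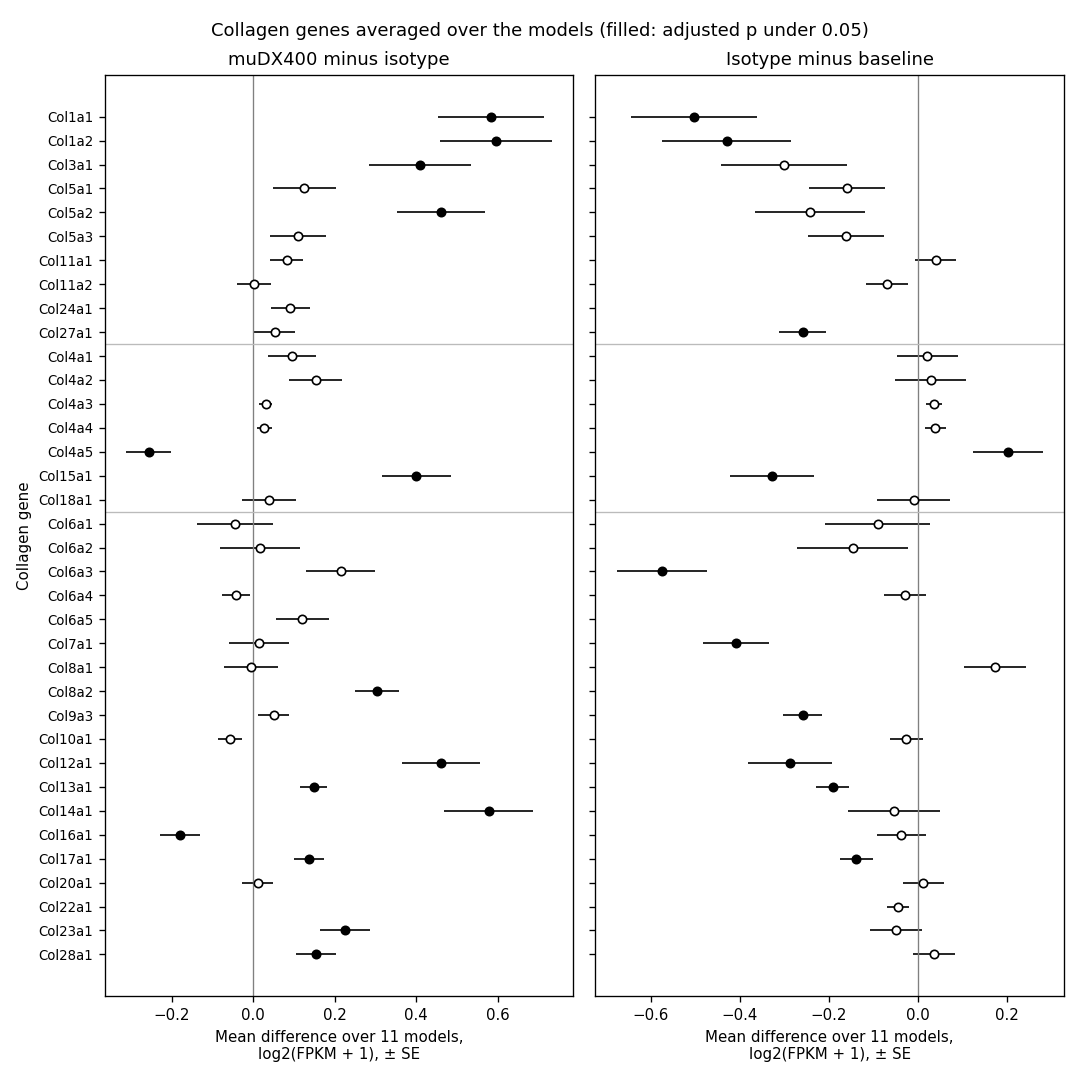
Mean over the 11 models of the log2(FPKM + 1) difference of each collagen gene, for muDX400 minus isotype and for isotype minus baseline, with bars of 1 SE and filled points where the adjusted p is under 0.05. Type I chains, Col12a1 and Col15a1 are filled on the right of 0 in the first panel and on the left of 0 in the second, and both panels share the isotype libraries.

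Genes that act with collagen moved unevenly in the same comparison. Of 16 collagen-binding matrix proteins 13 rose and none fell, among them lumican (Lum, 0.54), dermatopontin (Dpt, 0.49) and Prelp (0.47), which all bind fibrils. Of 11 genes for propeptide cleavage and crosslinking 6 rose, led by transglutaminase Tgm2 (0.49), the lysyl oxidase Loxl1 (0.47) and the procollagen N-proteinase Adamts2 (0.47). By contrast 1 of 19 processing enzymes and chaperones of the endoplasmic reticulum and Golgi rose, Creb3l1 (0.25), a transcription factor for secretory cells. Of 10 receptors 3 rose, Lair1 (0.39), Itga11 (0.35) and Mrc2 (0.23), and of 15 laminins, nidogens and other basement membrane partners 3 rose, Lama2 (0.24), Nid1 (0.23) and Nid2 (0.22). No gene of these lists fell.

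Markers of several host cell types rose with these collagens. All 10 endothelial markers rose (Pecam1 0.42 ± 0.06 SE, adjusted p = 3.25e-07), as did all 7 adipocyte markers tested (Cfd 1.19, Adipoq 0.87, Cidec 0.83), all 6 macrophage markers (Ms4a7 0.50), 7 of 9 pericyte and smooth muscle markers (Acta2 0.46) and 5 of 11 fibroblast markers (Pi16 0.85, Thy1 0.51, Ly6c1 0.43). None of 5 keratinocyte, 8 skeletal muscle and 4 cartilage and bone markers passed. No endothelial or adipocyte marker was at 0 in all libraries of any arm of a model. The part of these cell types in the collagen differences was not tested.

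Within single models the calls were few. Members passed in MC38 and RENCA only, and none passed in CM3, MBT2, CT26, EMT6, MB49, 4T1, B16F10, LL2 or TC1, where the share of all genes passing limma's test was 0% in the first 2 and in EMT6, MB49, 4T1, B16F10 and LL2, 0.0802% in TC1 and 0.339% in CT26 (0.289% higher and 0.0496% lower). At an unadjusted p under 0.05 the members were 8 of 21 in CM3, 1 of 19 in MBT2, 9 of 18 in CT26, 0 of 24 in EMT6, 7 of 22 in MB49, 0 of 21 in 4T1, 0 of 19 in B16F10, 4 of 18 in LL2 and 8 of 24 in TC1, against 26.6%, 28.7%, 19.2%, 4.24%, 10%, 4.68%, 3.07%, 16.6% and 6.55% of all genes in the same order. With a spread shared over all models 16 members passed in CM3 and in RENCA, 8 in MC38, 2 in MBT2 and 1 in CT26 and in MB49. The share of all genes passing in that setting is not given here, so these counts alone do not set collagens apart from other genes. In MBT2 1 member passed without muDX400 replicate 3.

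In MC38, 5 of 24 members passed (20.8%), where 27.3% of all genes did (14.6% higher and 12.7% lower), and 12 had an unadjusted p under 0.05, against 42% of all genes. Col14a1 read 3.45, 12.5, 23.6, 26.9 and 33.3 FPKM in muDX400 libraries and 1.54, 2.33, 2.60, 3.24 and 3.69 FPKM in isotype libraries. All but 1 of the muDX400 libraries lay above every isotype library, and the log2 difference was 2.24 ± 0.47 (SE, adjusted p = 0.00669). The type I chain Col1a2 read 178, 319, 525, 625 and 811 FPKM in muDX400 and 116, 122, 166, 182 and 341 FPKM in isotype libraries, a difference of 1.34 ± 0.40 (SE, adjusted p = 0.0312) between arms that overlapped. Its partner Col1a1 read 452, 503, 689, 803 and 959 FPKM in muDX400 and 327, 391, 408, 499 and 618 FPKM in isotype libraries, and the smaller difference of 0.58 ± 0.23 (SE, adjusted p = 0.075) did not pass. Col3a1 (0.29 ± 0.24 SE, adjusted p = 0.395) and Col4a1 (0.39 ± 0.17 SE, adjusted p = 0.108) did not pass either.

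The other calls of MC38 were falls. Col7a1 read 34.5, 36.6, 39.2, 48.9 and 66.3 FPKM in muDX400 and 46.4, 64.1, 74.6, 78.1 and 97.9 FPKM in isotype libraries, with a difference of -0.67 ± 0.21 (SE, adjusted p = 0.0371) between overlapping arms. The type VI chain Col6a4 read 0.654, 0.671, 0.738, 0.751 and 0.817 FPKM in muDX400 and 1.14, 1.31, 1.34, 1.74 and 1.75 FPKM in isotype libraries, and its arms did not overlap (-0.50 ± 0.10 SE, adjusted p = 0.00641). Col16a1, with 67.2, 68.1, 69.1, 69.9 and 85.6 FPKM in muDX400 and 81.0, 82.1, 92.5, 93.1 and 99.0 FPKM in isotype libraries, overlapped slightly (-0.31 ± 0.09 SE, adjusted p = 0.0291). Leaving out 1 library moved the count to 10 (muDX400 replicate 5), 1 (isotype replicate 1), 2 (muDX400 replicate 2 or 3) or 3 (muDX400 replicate 4, isotype replicate 4 or 5), and Col1a2, Col7a1 and Col16a1 each lost the call in at least 4 of these. Beside them 7 of 8 endothelial markers rose (Pecam1 1.45), 6 of 6 adipocyte markers, 3 of 6 pericyte and smooth muscle markers, 5 of 6 macrophage markers and 4 of 11 fibroblast markers (Pi16 2.11, Thy1 1.87), while 2 fibroblast markers fell (Pdgfrb -0.55). Summed adipocyte marker FPKM ran over 27.9 to 832 in muDX400 and 7.67 to 99.2 in isotype libraries, and that of endothelial markers over 51.3 to 186 in muDX400 and 50.9 to 56.8 in isotype libraries. The lowest muDX400 value of both lists was that of replicate 5, which also had the lowest muDX400 values of Col14a1 and Col8a2. Of 19 processing enzymes and chaperones 5 fell, among them Fkbp10 (-0.56) and P4ha2 (-0.49), while 6 of 11 crosslinking genes rose (Loxl2 1.69, Tgm2 1.44). Their part in the collagen differences was not tested.

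In RENCA, 2 of 24 members passed (8.33%), where 2.57% of all genes did (2.28% higher and 0.284% lower), and the median difference was 0.84 over the members and -0.06 over all genes. Col12a1 read 33.1, 76.6, 101, 158 and 162 FPKM in muDX400 and 18.3, 18.6, 20.4, 21.8 and 58.2 FPKM in isotype libraries. It overlapped through 1 library of each arm, and the difference was 1.86 ± 0.44 (SE, adjusted p = 0.046). Col4a5 read 0.276, 0.699, 0.966, 1.47 and 1.48 FPKM in muDX400 and 2.16, 2.79, 2.83, 3.77 and 5.17 FPKM in isotype libraries, which did not overlap (-1.14 ± 0.24 SE, adjusted p = 0.0304). Neither call held throughout, since leaving out 1 library gave a count of 0 (muDX400 replicate 1, 2 or 4, isotype replicate 3 or 5), 1 (muDX400 replicate 5, isotype replicate 1 or 2) or 12 (muDX400 replicate 3), and no filter on low values gave 0.

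Fibrillar chains of RENCA pointed up without passing. Col1a1 read 385, 704, 820.0, 1227 and 1363 FPKM in muDX400 and 164, 305, 343, 403 and 483 FPKM in isotype libraries (1.36 ± 0.36 SE, adjusted p = 0.0775). Col3a1 read 411, 720.1, 1082, 1542 and 1850.3 FPKM in muDX400 and 283, 360.4, 379, 523 and 633 FPKM in isotype libraries (1.23 ± 0.38 SE, adjusted p = 0.135). In both genes 4 muDX400 libraries lay above all isotype libraries and 1 lay among them. Col4a1 had 0.43 ± 0.24 (SE, adjusted p = 0.455). The summed collagen share of library FPKM was 0.722% in muDX400, 0.319% in isotype and 0.426% in baseline tumours (means). Endothelial markers rose in 5 of 10 (Emcn 1.44), with summed FPKM of 203 to 328 in muDX400 and 95.6 to 154 in isotype libraries. The summed FPKM of pericyte and smooth muscle markers was 57.6 to 116 in muDX400 and 28.3 to 56.1 in isotype libraries, with 1 of 7 past the test (Acta2 0.98). Of 10 fibroblast markers 3 rose (Pi16 1.79, Pdpn 1.15, Thy1 1.12). The summed FPKM of the fibroblast list did not rise, with 1601 to 2786 in muDX400 and 2520 to 3506 in isotype libraries. Adamts2 (1.47), Creb3l1 (1.35) and Nid2 (1.37) rose too. Their part in the collagen values was not tested.

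CM3 counts moved with 1 library. Col1a1 read 90.5, 118, 139, 145 and 188 FPKM in muDX400 and 19.8, 27.9, 65.4, 86.1 and 196 FPKM in isotype libraries, and Col3a1 read 177, 291, 325, 336 and 407 FPKM in muDX400 and 24.0, 54.9, 116, 176 and 466 FPKM in isotype libraries. The highest isotype library, replicate 4, lay above every muDX400 library in both genes while the other 4 isotype libraries lay below all of them. The differences were 1.19 ± 0.53 (SE, adjusted p = 0.184) for Col1a1, 1.49 ± 0.65 (SE, adjusted p = 0.183) for Col3a1 and 0.79 ± 0.24 (SE, adjusted p = 0.179) for Col4a1, and 18 of 21 members were positive. In that library skeletal muscle markers summed to 1235 FPKM, fibroblast markers to 413 FPKM and macrophage markers to 444 FPKM. The other 4 isotype libraries had at most 3.23 FPKM of the muscle, 224 FPKM of the fibroblast and 152 FPKM of the macrophage markers. Muscle markers also summed to 256 FPKM in muDX400 replicate 3 and to 94.4 FPKM in muDX400 replicate 4. The part of these cells was not tested. Without isotype replicate 4, 17 of 21 members passed, 14 higher and 3 lower. There 30.8% of all genes passed. Isotype replicates 2 and 3, which had the lowest summed collagen (328 and 265 FPKM), also stood apart in total FPKM, at 784468 and 885333, against 525381 to 528394 in the other 3 isotype and 507254 to 531146 in the muDX400 libraries. Without both no member passed (0 of 21, 1 at an unadjusted p under 0.05), where 0% of all genes passed and 11.8% had an unadjusted p under 0.05, and without replicates 2, 3 and 4 14 of 21 passed, 12 higher and 2 lower, where 38.4% of all genes passed.

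In the remaining models no named chain passed. Col1a1 had 0.83 ± 0.22 (SE, adjusted p = 0.122) in CT26 and 0.72 ± 0.40 (SE, adjusted p = 0.563) in MB49, and Col3a1 0.87 ± 0.26 (SE, adjusted p = 0.141) in CT26 and 0.51 ± 0.38 (SE, adjusted p = 0.697) in MB49. In LL2 no chain passed, with 1.84 ± 0.72 (SE, adjusted p = 0.271) for Col1a2 and 1.45 ± 0.61 (SE, adjusted p = 0.277) for Col1a1 but -0.03 ± 0.12 (SE, adjusted p = 0.896) for Col3a1, and the Col3a1/Col1a1 ratio did not differ past its test (log2 difference -1.6, exact p = 0.111, adjusted p = 0.337). B16F10 was the only model in which Col1a1 was negative, at -0.63 ± 0.58 (SE, adjusted p = 0.827), with -0.51 ± 0.69 (SE, adjusted p = 0.843) for Col3a1, and 1 of 19 members was positive there. Col1a1 had 0.47 ± 0.28 (SE, adjusted p = 0.28) in MBT2, 0.13 ± 0.18 (SE, adjusted p = 0.915) in EMT6, 0.03 ± 0.16 (SE, adjusted p = 0.993) in 4T1 and 0.30 ± 0.14 (SE, adjusted p = 0.762) in TC1. Col3a1 had 0.09 ± 0.16 (SE, adjusted p = 0.729) in MBT2, 0.25 ± 0.24 (SE, adjusted p = 0.907) in EMT6, 0.09 ± 0.17 (SE, adjusted p = 0.981) in 4T1 and 0.24 ± 0.11 (SE, adjusted p = 0.762) in TC1. Col4a1 lay between -0.28 (MB49, adjusted p = 0.415) and 0.24 (TC1, adjusted p = 0.748) in these 8 models.

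**Figure D4:**
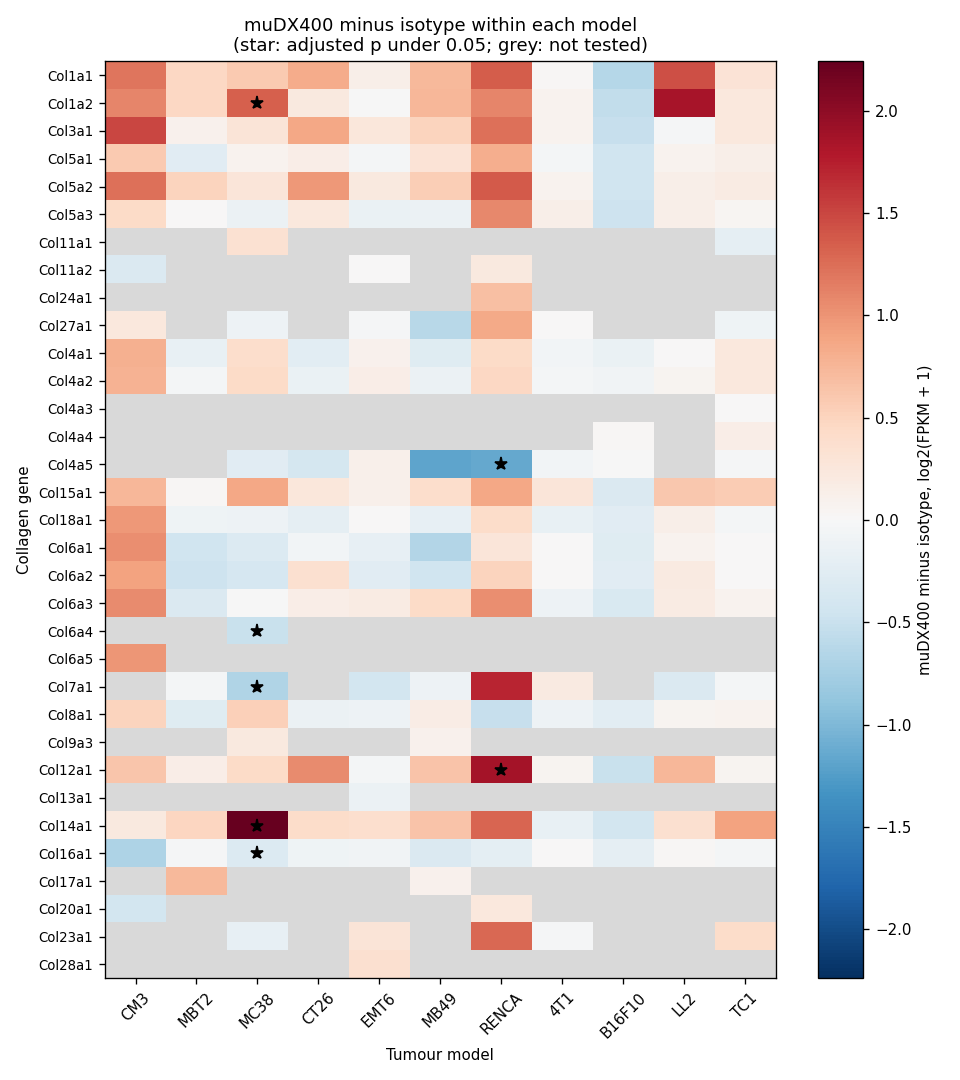
Difference between muDX400 and isotype in log2(FPKM + 1) for the collagen genes tested in any model (rows) in each model (columns), with a star where the adjusted p is under 0.05 and grey where the gene was not tested. Stars stand in MC38 (5) and RENCA (2). Members are mostly positive in CM3 (18 of 21), RENCA (21 of 24), LL2 (16 of 18) and TC1 (18 of 24), while B16F10 is mostly negative (1 of 19 positive).

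The size of the muDX400 difference was itself tested between the models with an F test over the 110 libraries at 8 days. It differed for 17 of 35 members (48.6%), where 32.4% of all genes tested differed, and 28 members passed without the libraries that stand apart, where 46.2% of all genes did. The count was 9 without replicate 1 of every arm, 6 without replicate 2 and 26 without replicate 4. The lowest adjusted p-values were those of Col8a2 (1.03e-06), Col4a5 (6.97e-06) and Col7a1 (2.2e-05). Col8a2 had 0.664, 4.15, 6.28, 6.36 and 6.99 FPKM in muDX400 and 0.273, 0.483, 0.643, 0.775 and 0.894 FPKM in isotype libraries of MC38, where 4 of 5 muDX400 libraries exceeded every isotype library. These 4 are among the only 7 libraries of the series in which Col8a2 reached 1 FPKM. It thus met the minimum only with the group where it was high, which limits what its test can show. Col4a5 was lower in all muDX400 than in all isotype libraries of RENCA (above) and of MB49, which had 3.45, 5.18, 5.92, 7.06 and 7.79 FPKM in muDX400 and 8.43, 11.2, 12.8, 20.9 and 22.9 FPKM in isotype libraries. Col7a1 was lower in MC38 (above) but read 4.28, 11.0, 18.9, 20.7 and 24.4 FPKM in muDX400 and 1.76, 2.24, 2.78, 3.04 and 12.4 FPKM in isotype libraries of RENCA, where every muDX400 library lay above 4 of the 5 isotype libraries. For Col1a1 (adjusted p = 0.085) and Col3a1 (adjusted p = 0.10) the difference between models did not pass. Without the libraries that stand apart the 17 remained, and Col3a1 (adjusted p = 0.0155) passed too, while Col1a1 (adjusted p = 0.0615) did not.

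**Figure D5:**
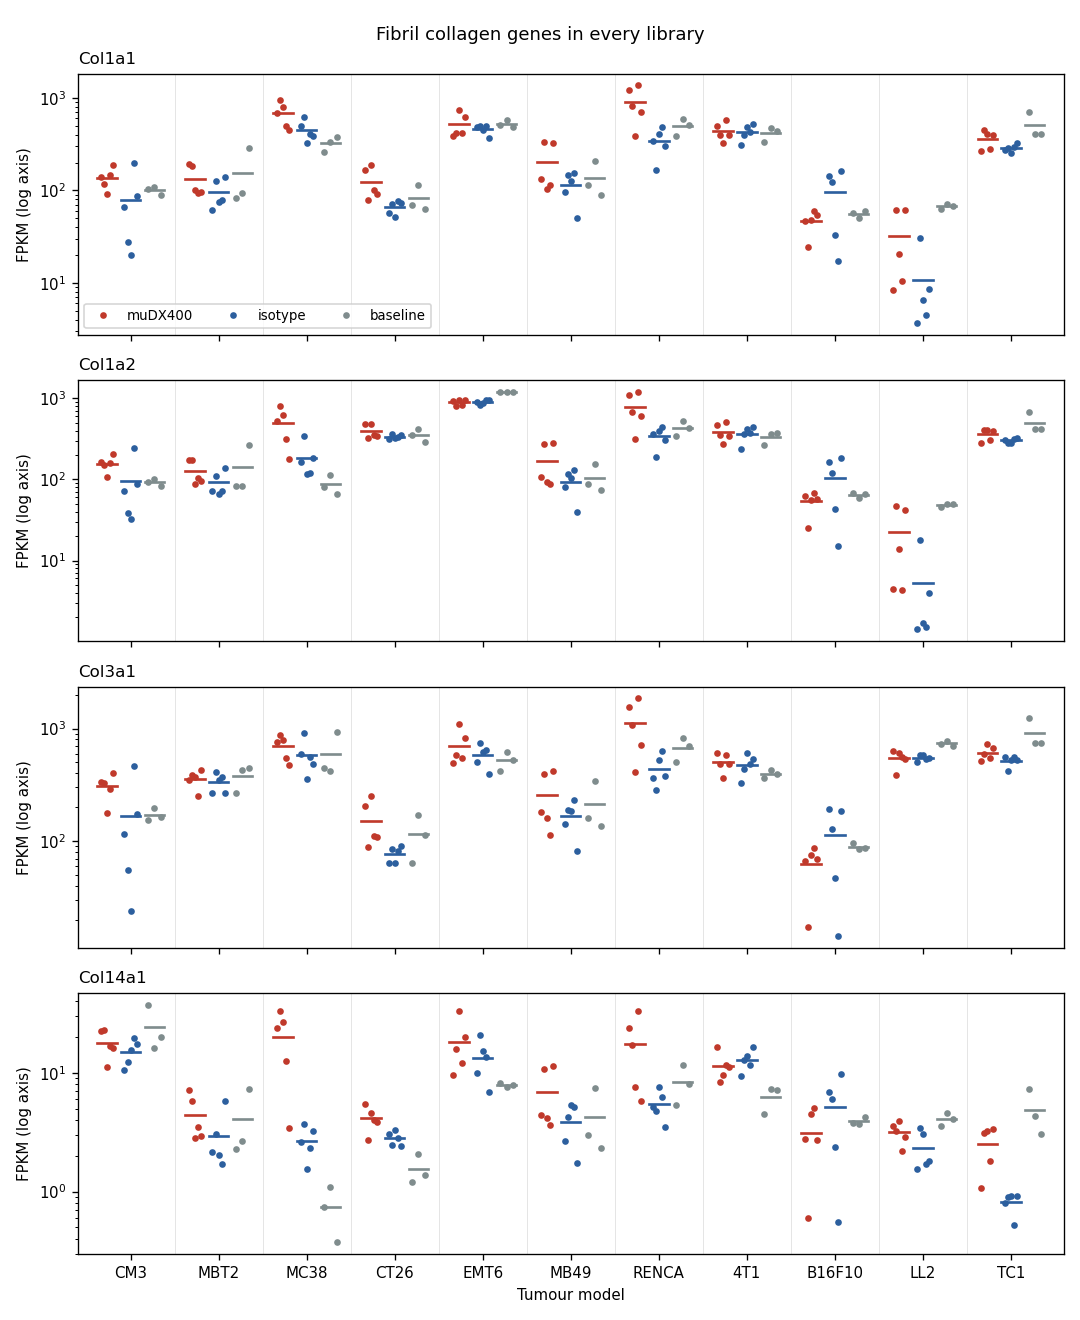
FPKM (log axis) of Col1a1, Col1a2, Col3a1 and Col14a1 in every library, by model, with muDX400 left of isotype and isotype left of baseline and a bar at the mean. LL2 isotype libraries lie far below the LL2 baselines in Col1a1 and Col1a2 and by less in Col3a1, and MC38 muDX400 libraries reach 33.3 FPKM of Col14a1 against at most 3.69 FPKM in isotype libraries.

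Isotype tumours were also compared with the untreated baseline, which shares the isotype libraries with the comparison above and sets antibody-injected tumours at 8 days against untreated ones. Over the mean of the 11 models 11 of 33 members passed (33.3%), 10 lower and 1 higher, where 29.2% of all 16305 genes passed, 4.12% higher and 25.1% lower. Col6a3, the chain that carries endotrophin, fell, with -0.58 ± 0.10 (SE, adjusted p = 4.51e-06). Type I chains fell, with -0.50 ± 0.14 (SE, adjusted p = 0.00441) for Col1a1 and -0.43 ± 0.15 (SE, adjusted p = 0.0182) for Col1a2. Col7a1 (-0.41 ± 0.07 SE, adjusted p = 7.8e-06), Col15a1 (-0.33 ± 0.09 SE, adjusted p = 0.00548) and Col12a1 (-0.29 ± 0.09 SE, adjusted p = 0.0156) fell too, and Col27a1, Col9a3, Col13a1 and Col17a1 fell by less. Col4a5 rose by 0.20 ± 0.08 (SE, adjusted p = 0.0409), while Col3a1 (-0.30 ± 0.14 SE, adjusted p = 0.104) and Col4a1 (0.02 ± 0.07 SE, adjusted p = 0.858) did not pass. The isotype libraries enter both comparisons, with opposite sign. The count was 7 without TC1, 0 in B16F10 and RENCA alone, the models with 1 block of sample numbers, and 12 without the libraries that stand apart, the same 11 and Col8a1, where 32.2% of all genes passed. The call of Col1a1 was lost without LL2 or without replicate 3, and that of Col4a5 without MC38, CT26, RENCA, 4T1 or TC1.

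Among partners in that comparison, 5 of 15 basement membrane genes fell (Lama5 -0.22, Agrn -0.21, Lamb2 -0.20), and of 19 processing genes 2 rose (P4ha1 0.20, a proline hydroxylase subunit) and 4 fell (Mia3 -0.34, an export receptor for procollagen). Of 16 collagen-binding proteins 1 fell, periostin (Postn -0.49). Of the markers, 2 of 4 keratinocyte (Krt14 -0.60), 2 of 8 skeletal muscle (Tnnt3 -0.87) and 2 of 11 fibroblast markers (S100a4 -0.31, Thy1 -0.30) were lower. Over all genes tested 25.1% were lower and 4.12% higher, so these counts alone do not set the lists apart from other genes. The part of these cell types was not tested.

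LL2 had the steepest fall of type I collagen. Col1a1 read 8.40, 10.4, 20.6, 60.7 and 61.9 FPKM in muDX400, 3.67, 4.53, 6.55, 8.52 and 30.8 FPKM in isotype and 63.3, 67.6 and 71.2 FPKM in baseline libraries. Col1a2 read 4.30, 4.50, 14.0, 41.6 and 46.9 FPKM in muDX400, 1.41, 1.52, 1.68, 3.93 and 18.1 FPKM in isotype and 46.2, 49.5 and 50.4 FPKM in baseline libraries. In both genes every isotype library lay below every baseline library, and the isotype minus baseline differences were -2.92 ± 0.53 (SE, adjusted p = 0.00429) for Col1a1 and -3.52 ± 0.61 (SE, adjusted p = 0.00363) for Col1a2. Col3a1 read 384, 541, 562, 607 and 631 FPKM in muDX400, 509, 533, 543, 580.2 and 585 FPKM in isotype and 705, 731 and 780.2 FPKM in baseline libraries, also without overlap of isotype and baseline but with a difference of only -0.43 ± 0.07 (SE, adjusted p = 0.00224). Col1a2 and Col3a1 are the chains whose upstream stretches are printed above.

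In all, 8 of 18 members passed in LL2 (44.4%), 7 lower and 1 higher, where 27.1% of all genes passed. Col12a1 fell, from a low level, with 0.485, 0.509, 0.521, 0.899 and 2.19 FPKM in isotype and 4.60, 4.67 and 5.64 FPKM in baseline libraries (-1.70 ± 0.24 SE, adjusted p = 0.00139), and Col15a1 (-0.95 ± 0.22 SE, adjusted p = 0.0123), Col14a1 and Col5a1 fell as well. Col8a1, a network former of vessel walls, rose by 0.41 ± 0.07 (SE, adjusted p = 0.00254), and Col4a1 (0.10 ± 0.12 SE, adjusted p = 0.572) did not pass. All 6 adipocyte markers tested fell (Cfd -3.74), with summed FPKM of 1.45 to 27.5 in isotype and 71.4 to 144 in baseline libraries, as did 5 of 14 collagen-binding proteins (Postn -2.43, biglycan Bgn -1.75), 8 of 19 processing genes (the collagen chaperone Serpinh1 -0.79) and 4 of 11 crosslinking genes (Lox -1.93). Of 7 pericyte and smooth muscle markers 2 fell (Acta2 -0.65, Des -0.63). Of 10 fibroblast markers 3 fell (Thy1 -1.96, Pi16 -1.46, Pdpn -0.83), while their summed FPKM was 1814 to 2149 in isotype and 1949.6 to 2238 in baseline libraries. The part of these cells was not tested, and arm and block of sample numbers cannot be told apart in LL2 or TC1.

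TC1 had the most calls, 18 of 25 members (72%), 15 lower and 3 higher, where 37% of all genes passed, 9.92% higher and 27.1% lower. Col14a1 read 0.526, 0.797, 0.906, 0.912 and 0.917 FPKM in isotype and 3.06, 4.31 and 7.27 FPKM in baseline libraries (-1.64 ± 0.19 SE, adjusted p = 0.000187). All isotype libraries lay below all baseline libraries. Col15a1 fell, with -1.33 ± 0.27 (SE, adjusted p = 0.00315), Col27a1 with -1.07 ± 0.19 (SE, adjusted p = 0.00162), Col1a1 with -0.78 ± 0.17 (SE, adjusted p = 0.00497) and Col3a1 with -0.78 ± 0.17 (SE, adjusted p = 0.0045), and both Col4a1 (-0.28 ± 0.10 SE, adjusted p = 0.0484) and Col4a2 (-0.25 ± 0.09 SE, adjusted p = 0.0394) fell a little. The other type IV chains went the other way. Col4a4 read 2.26, 2.30, 2.40, 2.57 and 3.52 FPKM in isotype and 0.833, 1.52 and 1.78 FPKM in baseline libraries (0.61 ± 0.15 SE, adjusted p = 0.0106), without overlap, Col4a3 rose by 0.43 ± 0.14 (SE, adjusted p = 0.0332) and Col4a5 by 0.28 ± 0.08 (SE, adjusted p = 0.0192). Without baseline replicate 1 the count was 11. The collagen falls stood beside 9 of 10 endothelial markers lower (Kdr -1.55), with summed FPKM of 84.4 to 109.7 in isotype and 165 to 305 in baseline libraries, 4 of 7 pericyte and smooth muscle markers lower and 1 higher (Rgs5 -1.50, Cspg4 0.35), with 43.3 to 46.2 in isotype and 59.2 to 75.4 in baseline libraries, 6 of 11 fibroblast markers lower (Pi16 -2.42), 5 of 6 macrophage and 8 of 12 basement membrane partner genes lower. The TC1 baselines are also among the 9 libraries over 30 M fragments, and the part of depth and of these cells was not tested.

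EMT6 and 4T1 are both mammary carcinomas, and most calls in each were falls, among the members as over all genes. In EMT6 6 of 24 members passed (25%), all lower, where 10.6% of all genes passed, 7.69% lower and 2.92% higher. The largest falls were those of Col7a1 (-0.89 ± 0.14 SE, adjusted p = 0.00638), Col6a2 (-0.76 ± 0.17 SE, adjusted p = 0.0251) and Col6a1 (-0.70 ± 0.13 SE, adjusted p = 0.0137). Deviations of same-numbered libraries correlated between 0.164 and 0.311 over the 3 pairs of this model, above the cut of 0.1, but only a number joins them. With the replicate as a block 15 members passed, while 2 passed with a spread shared over all models and 3 without baseline replicate 2 or 3. In 4T1 4 of 22 members passed (18.2%), 3 lower and 1 higher, where 15.3% of all genes did, 10.7% lower and 4.61% higher. That count lies near the share over all genes and does not set collagens apart there. Without baseline replicate 3, 7 members passed. Col7a1 read 49.3, 61.2, 63.1, 63.2 and 74.0 FPKM in isotype and 132, 152 and 182 FPKM in baseline libraries of 4T1, which did not overlap (-1.31 ± 0.14 SE, adjusted p = 0.000312). Col6a3 (-0.92 ± 0.14 SE, adjusted p = 0.00268) and Col16a1 (-0.48 ± 0.09 SE, adjusted p = 0.00717) fell too, and Col14a1 rose by 0.93 ± 0.19 (SE, adjusted p = 0.0102). The keratinocyte marker Krt14 fell in both models, with -1.13 in EMT6 and -1.53 in 4T1, and adipocyte markers rose in 5 of 6 in EMT6 (Cfd 5.45) and 6 of 6 in 4T1 (Cfd 4.64), while of 11 fibroblast markers 2 fell in EMT6 (S100a4 -0.59) and 1 fell and 2 rose in 4T1 (S100a4 -1.32), and their part was not tested. Neither Col1a1 nor Col3a1 nor Col4a1 passed in either model, with -0.20 ± 0.11 (SE, adjusted p = 0.271) for Col1a1 in EMT6 and 0.03 ± 0.17 (SE, adjusted p = 0.919) in 4T1, 0.14 ± 0.21 (SE, adjusted p = 0.689) for Col3a1 in EMT6 and 0.26 ± 0.17 (SE, adjusted p = 0.316) in 4T1, and 0.26 ± 0.20 (SE, adjusted p = 0.417) for Col4a1 in EMT6 and 0.13 ± 0.16 (SE, adjusted p = 0.59) in 4T1.

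In CT26 the vascular type IV chains were higher in isotype than in baseline tumours. There 5 of 19 members passed (26.3%), where 23.4% of all genes did. Col4a1 read 76.1, 90.7, 98.8, 99.6 and 101 FPKM in isotype and 45, 58.7 and 76.9 FPKM in baseline libraries, which overlapped by 1 library (0.65 ± 0.16 SE, adjusted p = 0.018), and Col4a2 rose by 0.55 ± 0.17 (SE, adjusted p = 0.0379) and Col14a1 by 0.59 ± 0.14 (SE, adjusted p = 0.017). Col18a1 rose and Col16a1 fell (-0.37 ± 0.10 SE, adjusted p = 0.0246), and 4 of 8 endothelial markers rose (Cdh5 1.05), while 3 of 9 fibroblast markers fell (Thy1 -0.84) and 1 rose, and their part was not tested. The count fell to 2 without isotype replicate 1 or 3 and to 3 without isotype replicate 5 or baseline replicate 3. Col1a1 (-0.27 ± 0.20 SE, adjusted p = 0.381) and Col3a1 (-0.50 ± 0.27 SE, adjusted p = 0.21) did not pass.

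In MC38, 2 of 25 members passed (8%), where 3.25% of all genes did, Col14a1 with 1.54, 2.33, 2.60, 3.24 and 3.69 FPKM in isotype and 0.374, 0.737 and 1.10 FPKM in baseline libraries (1.07 ± 0.22 SE, adjusted p = 0.0281) and Col12a1 (0.84 ± 0.19 SE, adjusted p = 0.048). Col14a1 thus ran highest in muDX400 and lowest in baseline libraries of MC38, and neither call held without isotype replicate 1, 4 or 5 or without baseline replicate 1 or 2, while 4 members passed without isotype replicate 3 and 1 without isotype replicate 2 or baseline replicate 3. RENCA had 1 of 21 members (4.76%), where 10% of all genes passed, namely Col6a3 with 9.20, 18.1, 19.1, 23.6 and 29.1 FPKM in isotype and 47.3, 52.9 and 53.6 FPKM in baseline libraries (-1.41 ± 0.30 SE, adjusted p = 0.0192). The arms did not overlap, and the count was 0 without any 1 of the 3 baseline libraries, 2 without isotype replicate 1 or 3 and 4 without isotype replicate 4. MBT2 had 1 of 19 members (5.26%), where 22.4% of all genes passed, namely Col16a1 (-0.25 ± 0.08 SE, adjusted p = 0.0442), a call lost on leaving out isotype replicate 2, 3, 4 or 5 or any baseline library. No member passed in CM3 (0.374% of all genes), MB49 (1.89%) or B16F10 (0.933%), where 1 of 23, 0 of 22 and 0 of 19 members had an unadjusted p under 0.05, against 11.5%, 10.9% and 6.11% of all genes. Col1a1 had -0.79 ± 0.65 (SE, adjusted p = 0.566) in CM3, -0.52 ± 0.41 (SE, adjusted p = 0.383) in MBT2, 0.45 ± 0.21 (SE, adjusted p = 0.317) in MC38, -0.26 ± 0.38 (SE, adjusted p = 0.928) in MB49, -0.61 ± 0.32 (SE, adjusted p = 0.28) in RENCA and 0.33 ± 0.70 (SE, adjusted p = 0.897) in B16F10. Col3a1 and Col4a1 did not pass in these 6 models, with Col3a1 between -0.70 (CM3) and -0.01 (MC38) and Col4a1 at -0.73 (CM3), -0.13 (MBT2), 0.30 (MC38), -0.12 (MB49), -0.08 (RENCA) and 0.12 (B16F10).

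Finally, levels and muDX400 differences were set against the response class of the model, with a score of 0 in Resistant, 1 in Partial and 2 in High models and with the 11 models as replicates in limma. No collagen gene passed for the isotype level (0 of 21 tested, 0 at an unadjusted p under 0.05) or for the muDX400 difference (0 of 24 tested, 2 at an unadjusted p under 0.05), and no gene of the table passed either (0% in both, 4.71% and 25.9% at an unadjusted p under 0.05). The slope per class step of the isotype level was 0.29 ± 0.60 (SE, adjusted p = 0.992) for Col1a1, -0.15 ± 0.41 (SE, adjusted p = 0.992) for Col3a1 and -0.42 ± 0.21 (SE, adjusted p = 0.99) for Col4a1. The slope of the muDX400 difference was 0.24 ± 0.21 (SE, adjusted p = 0.485) for Col1a1, 0.36 ± 0.18 (SE, adjusted p = 0.205) for Col3a1 and 0.15 ± 0.11 (SE, adjusted p = 0.374) for Col4a1. Without the libraries that stand apart no member or other gene passed either, with 0 and 3 members at an unadjusted p under 0.05, against 4.2% and 28.3% of all genes. With 11 models the slopes of the genes named here carry standard errors of 0.11 to 0.60. Slopes larger than their standard error, such as 0.36 ± 0.18 for Col3a1, did not pass either, so the lack of calls does not exclude relations of that size.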

How the data were processed

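RNA of whole tumours was measured by ribosomal-RNA-depleted, stranded total RNA sequencing with 50 base paired-end reads, per the labels' protocols. The deposited values are FPKM per gene, made by the authors, in 1 table of the whole series, and the aligner, quantifier, genome build, annotation and use of strand were not given in the sources used here. Depth was therefore estimated from the smallest steps of FPKM values, and FPKM, being shares of a library, fall when other transcripts rise. All columns were matched to samples and 0 went unused.

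Values were analysed as log2(FPKM + 1), which understates changes of low genes, with limma 3.58.1 in R 4.3.3 using an intensity trend. Tests were 2-sided and p-values were adjusted over all genes tested by Benjamini and Hochberg's method at a threshold of 0.05. Genes needed 1 FPKM in at least 5 of the libraries compared, or in 3 for isotype against baseline within a model, or a mean of 1 FPKM in 3 models for class trends. Each model was fitted alone. Means over the 11 models and the test between models were fitted to single libraries with 1 mean per model and arm. Their SE and p-values thus rest on the spread between libraries within these groups, not on the spread between models. Ratios between chains used log2 after adding 0.1 FPKM to both, with exact permutation tests in scipy 1.17.1. The fits were tested on simulated data. Gene positions came from the reference annotation of GRCm38, which may differ from the authors' build, and promoter sequences from RefSeq (GRCm38.p6).

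Replicate numbers carry across arms in the labels. Deviations of same-numbered libraries from their group means correlated between -0.674 and 0.641, and every pair exceeded 0.1 in 0 of 11 models for muDX400 against isotype and in 1, EMT6, for isotype against baseline. Alternatives were a pseudocount of 0.1, no filter, median-ratio scaling, the replicate as a block, a spread shared over models, and leaving out each library or model. Leaving out the 5 libraries whose collagen sum stood apart, and isotype replicates 2 and 3 of CM3, was added after seeing the data. Named in every comparison were Col1a1, Col3a1 and Col4a1, then the members past the threshold with the largest changes, up to 3 in each direction within a model and 6 over models, both members of the type IV pairs, and members at least 10 times higher in 1 model. Other members were named after their values were seen. The members, lists and tests were chosen with earlier results of these data known. The result of a further cell type marker list is not reported here.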

Additional observations from a re-analysis of the deposited data

Results flagged for a closer look

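Among 66 sums of a collagen group over the 5 libraries of a model's 8-day arm, 5 held a library whose gap to the rest was large for the range, where chance alone flags about 1 in 20. In CM3 isotype replicate 4 the other collagens summed to 230.5 FPKM, the highest of its group. In RENCA isotype replicate 2 the basement membrane chains summed to 140.3 FPKM, where the rest began at 268.6 FPKM. In 4T1 isotype replicate 1 the other collagens summed to 358.3 FPKM, where the rest began at 439 FPKM. In B16F10 muDX400 replicate 2 the fibrillar chains summed to 81.77 FPKM, where the rest began at 200.2 FPKM. In TC1 isotype replicate 2 the basement membrane chains summed to 418.1 FPKM, where the rest began at 456.1 FPKM.

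The difference between muDX400 and isotype itself differed between the 11 models, by limma's F test, for 17 members. Beside Col8a2 (adjusted p = 1.03e-06), Col4a5 (6.97e-06) and Col7a1 (2.2e-05) these were the fibrillar or fibril-associated Col27a1 (0.000665), Col12a1 (0.00176), Col14a1 (0.00201), Col5a3 (0.0116), Col9a3 (0.0187) and Col11a2 (0.0448). The basement membrane chains Col4a1 (0.0164), Col18a1 (0.0277) and Col4a3 (0.028) and the type VI chain Col6a3 (0.0182) passed as well. So did the transmembrane Col13a1 (0.00151), Col23a1 (0.00237) and Col17a1 (0.0188) and the short-chain Col10a1 (0.00935). Several of these, such as Col8a2, Col10a1 and Col4a3, pass 1 FPKM in few models.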

How the results depend on the processing

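Counts of collagen genes past the threshold are given first for muDX400 against isotype. The share of all genes passing can move with the setting too, as in CM3, from 0% to 30.8% without isotype replicate 4. Where no such share stands beside a count, here or above, the count alone does not set collagens apart from other genes. A spread shared over all models gave 16 in CM3, 2 in MBT2, 8 in MC38, 1 in CT26, 1 in MB49 and 16 in RENCA. In RENCA no filter gave 0 and the replicate block 1. Leaving out isotype libraries 2, 3 and 4 gave 14 in CM3. Leaving out 1 library gave 0 to 17 in CM3, 0 to 1 in MBT2, 1 to 10 in MC38 and 0 to 12 in RENCA. For isotype against baseline the shared spread gave 6 in CM3, 0 in MC38, 3 in CT26, 2 in EMT6, 7 in RENCA, 5 in LL2 and 10 in TC1, and the replicate block 0 in MC38, 0 in CT26, 15 in EMT6 and 2 in RENCA. MC38 had 1 with the smaller pseudocount and 0 without a filter, and RENCA had 3 without a filter and 2 with other scaling. Leaving out 1 library gave 0 to 1 in MBT2, 0 to 4 in MC38, 2 to 6 in CT26, 3 to 8 in EMT6, 0 to 4 in RENCA, 4 to 7 in 4T1 and 11 to 17 in TC1. Over the models the count of isotype against baseline was 7 without TC1 and 0 in B16F10 and RENCA alone, and the test of differing effects gave 6 to 26 when a replicate number was left out and 28 without the libraries that stand apart. The cause of these moves was not tested, except that fewer models or libraries were fitted. The replicate block pairs by a number alone, in EMT6 as well, and own numbers correlated best in 11 of 55 and 6 of 33 cases.

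Of 1791 repeats of 120 single-gene results, 1557 kept direction and side of the threshold, 167 fell below it, 23 rose above it and 44 changed sign, all of them uncalled values. For muDX400 against isotype, leaving out 1 library gave log2 differences of -0.0116 to 0.222 for Col1a1 and -0.0179 to 0.225 for Col4a1 in EMT6, -0.0757 to 0.130 for Col1a1 and -0.0394 to 0.2 for Col3a1 in 4T1, and -0.0905 to 0.0882 for Col3a1 (0.0266 with median-ratio scaling) and -0.112 to 0.0919 for Col4a1 in LL2. For isotype against baseline it gave -0.845 to 0.0345 for Col1a1 and -0.227 to 0.0219 for Col4a1 in MBT2, -0.211 to 0.353 for Col3a1 in MC38, -0.0118 to 0.279 for Col3a1 in EMT6, and -0.528 to 0.0823 for Col1a1, -0.571 to 0.0915 for Col3a1 and -0.265 to 0.0216 for Col4a1 in MB49. It also gave -0.173 to 0.103 for Col4a1 in RENCA, -0.115 to 0.140 for Col1a1 and -0.0898 to 0.302 for Col4a1 in 4T1, and -0.469 to 0.443 for Col3a1 and -0.0206 to 0.367 for Col4a1 in B16F10. Median-ratio scaling gave 0.0355 for Col3a1 in MC38 and 0.0628 for Col4a1 in RENCA. The replicate block gave 0.0442 for Col3a1 in MC38, -0.0777 for Col1a1 in 4T1, 0.245 for Col3a1 in B16F10, -0.000342 for Col4a1 in LL2 and -0.0188 for Col4a1 over the models, where leaving out a model gave -0.00717 (MC38), -0.0420 (CT26) and -0.00320 (EMT6). Slopes of the isotype level with class ran from -0.309 to 0.615 for Col1a1 and from -0.463 to 0.107 for Col3a1 when 1 model was left out.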
